A study of Mus musculus with 6 samples.

Results

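The data on 7 homeobox genes of the olfactory placode, Dlx5, Dlx6, Six4, Pax6, Otx2, Meis1 and Meis2, were examined in 3 mouse cell populations. Members were all probe sets whose single symbol in the platform annotation was that of a listed gene. This gave 19 probe sets, 12 on chip A and 7 on chip B, of 45137 on both chips without controls, and 7 of 18193 named genes. All samples came from OMP-GFP mice, in which GFP stands in place of the coding region of Omp, a protein of mature olfactory and vomeronasal sensory neurons. The populations were GFP-positive olfactory sensory neurons (OSNs) purified by fluorescence sorting (about 500000 cells), the olfactory epithelium depleted of those neurons (about 2500000 cells, here the residual epithelium), and brain without the olfactory bulbs. The arrays were Affymetrix expression chips, an A chip and a B chip that carry mostly different probe sets, and each population had 1 of each with no replicates. The sources used here do not give the age or sex of the mice or whether animals were pooled, and brain without its bulbs mixes many regions and cell types.

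Homeobox genes encode transcription factors that bind DNA through a homeodomain. In the embryo, members of the families named here mark the ectoderm of the anterior head that thickens into the olfactory placode, from which the olfactory epithelium and its neurons arise. The epithelium renews its neurons throughout life from basal cells, through progenitors and immature neurons, and several of these factors are also known from regions of the brain. Outside the nose, Dlx genes act in forebrain interneurons, Pax6 in the eye, cortex and cerebellum, Otx2 in the choroid plexus and midbrain, and Meis genes in many neurons and in blood stem cells.

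The signal of a probe set is a linear intensity, and each array had been brought to a common mean. The lower quartile of a chip (70.3 for A, 79.7 for B) served as a floor: fainter signals were set to that value before ratios were taken. A ratio in which the fainter side lay at the floor is therefore a bound, written as "at least". Genes and probe sets entered a comparison, and are called counted, if at least 1 of the compared signals was at or above the median of the chip (222 for A, 243.7 for B). Those that differed by 2-fold or more were called higher or lower. A gene was represented by its brightest probe set, ranked within its chip. With 1 array per population and chip no test across samples was possible. As a yardstick, the log2 ratio of sorted OSNs to residual epithelium differed between the chips with an SD of 0.25 for 99 shared probe sets, and between a pair of probe sets of the same gene with an SD of 0.88. The latter SD was 1.11 for sorted OSNs over brain and 1.10 for residual epithelium over brain. For residual epithelium over brain, ratios of the shared probe sets were on average 0.42 higher on chip B than on chip A. None of these SDs stands for the spread between animals.

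The labels were checked with marker genes. All 8 mature OSN markers were at least 2-fold higher in sorted OSNs than in both other populations. Among all counted genes 12.8% were higher there than in residual epithelium and 18.5% higher than in brain. Omp is among the 8, and the cells were sorted by GFP at its locus, so it is no separate check. For Omp, Cnga2, Cnga4, Stoml3 and S100a5 the brain signal stayed below the chip median, so the filter fixed their sign against brain. Against the residual epithelium, 5 of 7 immature OSN markers, all 5 progenitor markers on the chips, all 4 horizontal basal cell markers, 4 of 7 sustentacular (supporting) cell markers and 8 of 9 counted blood and marrow markers were lower in sorted OSNs. Of all counted genes, 18.7% were lower there. For all 4 horizontal basal markers, and for the progenitor markers other than Ezh2, only the residual signal reached the chip median. The same held for the lower blood and marrow markers other than Mpo, and for Cxcr4, Notch2 and Hes1. The filter thus fixed the sign of these markers, and their counts are a description. The signal of the 9 blood and marrow markers on chip A summed to 1309.1 in sorted OSNs, 50913.7 in residual epithelium and 1495.6 in brain, so RNA of blood cells was part of the residual population. In such bulk RNA, fewer cells of a type and less RNA per cell cannot be told apart.

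Most members were lower in mature OSNs than in the epithelium left behind, and none was higher. The call was made for 6 of 7 genes, against 18.7% of all 12254 counted genes called lower and 12.8% called higher, and the median log2 ratio of the members was -1.80, against -0.05 over all counted genes. For 4 of the 7 (Dlx6, Six4, Pax6 and Otx2) only the residual signal reached the chip median, so the sign of their ratio was fixed by the filter and the count over members is a description. For the other 3 (Dlx5, Meis1 and Meis2) both signals reached it. Relative to brain the members divided: 5 (Dlx5, Dlx6, Six4, Otx2 and Meis1) were called higher in residual epithelium, whereas Pax6 and Meis2 were within 2-fold there and lower in sorted OSNs than in brain. Of these 5, all but Meis1 were counted against brain only through the residual signal, which again fixed their sign, and Pax6 was counted in sorted OSNs over brain only through the brain signal.

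**Figure D1:**
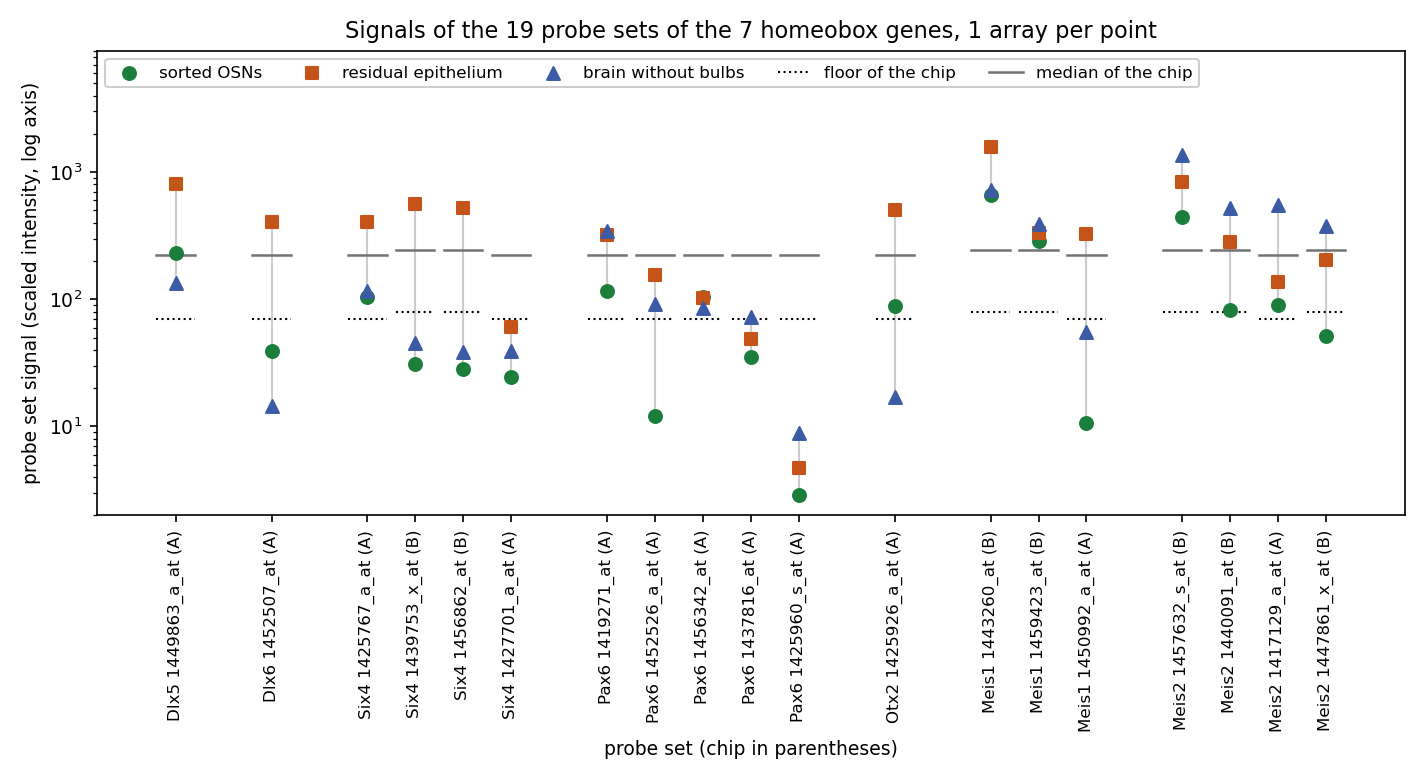
Signal of each of the 19 probe sets of the 7 homeobox genes on a log axis, with 1 array per point (circles, sorted OSNs; squares, residual epithelium; triangles, brain without bulbs), the floor of each chip as a dotted line and its median as a solid line. Dlx5, Dlx6, Otx2 and the 3 brighter Six4 probe sets are highest in residual epithelium, whereas the 4 Meis2 probe sets are highest in brain.

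Dlx5 and Dlx6 are neighbouring genes that encode related distal-less factors and act together in the olfactory placode and in craniofacial development. Dlx5 (probe set 1449863_a_at, chip A) had a signal of 230.8 in sorted OSNs, 801.7 in residual epithelium and 133.7 in brain. It was thus highest in residual epithelium, 3.47-fold above sorted OSNs (log2 ratio of sorted OSNs to residual epithelium -1.80) and 6.0-fold above brain (log2 2.58). The OSN signal was at percentile 53.9 of its array, above the chip median, and 1.73-fold above brain, which is under the 2-fold call, although quantile normalization put it above (log2 1.11). Dlx6 (1452507_at, chip A) had 39.2 in sorted OSNs, 404.9 in residual epithelium and 14.4 in brain. Only the residual epithelium rose above the floor for Dlx6, so it was at least 5.76-fold higher there than in both other populations, and sorted OSNs and brain could not be ranked.

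Dlx6os1, also known as Evf2, is a long noncoding RNA gene read from the opposite strand across Dlx6. Its probe set 1438799_at on chip B gave 257.6 in sorted OSNs, 855.6 in residual epithelium and 279.0 in brain. The residual epithelium was again highest, 3.32-fold above sorted OSNs and 3.07-fold above brain. The annotations used here do not show whether this probe set also reads Dlx6 transcripts.

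Six4 encodes a sine oculis factor that works with Eya coactivators in sensory placodes. Its brightest probe set, 1425767_a_at on chip A, had 105.1 in sorted OSNs, 405.2 in residual epithelium and 116.1 in brain. Sorted OSNs and brain were close to each other (log2 difference -0.14), and residual epithelium lay 3.86-fold above the former and 3.49-fold above the latter. On chip B, 1439753_x_at had 31.1, 562.7 and 45.6 in the same order, and 1456862_at had 28.1, 521.0 and 38.5. These probe sets, which share their source sequence in the platform annotation and so are not independent, gave residual signals at least 7.06-fold and at least 6.54-fold above both other populations. The remaining probe set, 1427701_a_at, was below the floor everywhere, with 60.9 as its highest signal, in residual epithelium.

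Otx2 encodes an orthodenticle factor of the anterior head and brain. Its single probe set, 1425926_a_at on chip A, had 88.2 in sorted OSNs, 507.3 in residual epithelium and 17.2 in brain. Residual epithelium was 5.75-fold above sorted OSNs and at least 7.22-fold above brain, where the signal stood at percentile 9.2 of the array. The OSN signal lay just above the floor. Markers of the choroid plexus, a known site of Otx2, went both ways between residual epithelium and brain, with 2 of 6 higher, 2 lower and 2 within 2-fold. Among all counted genes 22.5% were higher and 18.9% lower there. Of these calls, those of Aqp1 and Kl had their sign fixed by the filter. Ttr, the thyroxine carrier made there, had a chip B signal of 34516.5 in brain, 481.8 in residual epithelium and 149.3 in sorted OSNs, whereas the water channel Aqp1 had 151.1, 2053.5 and 110.0 in that order on chip A.

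Pax6 encodes a paired box and homeodomain factor of eye, nose and brain. Its brightest probe set, 1419271_at on chip A, had 116.3 in sorted OSNs, 321.7 in residual epithelium and 346.2 in brain. Residual epithelium and brain differed by only -0.11 on the log2 scale, and both were above sorted OSNs, by 2.77-fold and 2.98-fold. The other 4 Pax6 probe sets stayed below the chip median in all populations and were not counted. Among them, 1452526_a_at had 12.1, 155.5 and 92.4 in sorted OSNs, residual epithelium and brain, 1456342_at had 104.5, 102.9 and 84.9, 1437816_at had 35.3, 48.7 and 72.7, and 1425960_s_at did not exceed 8.9. The Pax6 calls therefore rest on 1 of 5 probe sets, and the median ratio over all 5 was 0.00 for sorted OSNs over residual epithelium and -0.05 for sorted OSNs over brain.

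Meis1 and Meis2 encode TALE homeodomain factors that bind DNA with Pbx proteins. The brightest Meis1 probe set, 1443260_at on chip B, had 664.5 in sorted OSNs, 1585.8 in residual epithelium and 724.9 in brain. Residual epithelium was highest, 2.39-fold above sorted OSNs and 2.19-fold above brain, and the latter ratio fell under 2-fold (log2 0.77) when the arrays were rescaled with the 99 probe sets that both chips carry. The other Meis1 probe sets did not give the same picture. On chip A, 1450992_a_at had 10.6, 326.9 and 55.8, so only residual epithelium exceeded the floor and stood at least 4.65-fold above both other populations. On chip B, 1459423_at had 288.3, 331.9 and 391.6, a rise from sorted OSNs to brain that stayed within 2-fold throughout. Which probe set stands for the Meis1 transcripts of these tissues was not tested. Some blood and marrow cells can express Meis1, and their part in its signal was not tested either. Of the blood and marrow markers, 8 of 9 counted were lower in sorted OSNs than in residual epithelium, against 18.7% of all counted genes. In residual epithelium over brain 7 of 10 were higher, against 22.5%. Others did not move so: Cd34 had 18.4, 72.8 and 385.6, and Itga2b had 398.6, 275.0 and 386.9. The 7 markers higher than brain were counted there only through the residual signal, which fixed their sign. Against sorted OSNs the same held for the lower markers other than Mpo, so both counts are a description.

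Meis2 was the member whose signal was highest in brain on every probe set. The brightest, 1457632_s_at on chip B, had 441.6 in sorted OSNs, 831.7 in residual epithelium and 1373.4 in brain. The order from sorted OSNs up to residual epithelium and brain was the same on all 4 probe sets. For this probe set sorted OSNs were 3.11-fold below brain and 1.88-fold below residual epithelium, and residual epithelium was 1.65-fold below brain. With the arrays rescaled as for Meis1, the last ratio passed 2-fold (log2 -1.09). The other probe sets gave signals of 82.1, 281.2 and 523.9 (1440091_at, chip B), of 90.4, 136.7 and 548.2 (1417129_a_at, chip A) and of 51.9, 204.9 and 378.3 (1447861_x_at, chip B). Sorted OSNs were 6.38-fold, 6.06-fold and at least 4.75-fold below brain on these, larger ratios than on the brightest one. Probe sets whose names end in s_at or x_at can read transcripts of related genes, and which transcripts 1457632_s_at reads was not tested.

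Counted by probe set, 10 of 12 counted members were called lower in sorted OSNs than in residual epithelium, against 17.9% of the 20913 counted probe sets with a single symbol, and the other 2 were within 2-fold. For 8 of the 12 only the residual signal reached the chip median. Against brain, 5 of 8 counted probe sets were called lower in sorted OSNs, 4 of them of Meis2 and 1 of Pax6, against a background of 22.4%. Of these 5, 4 were counted only through the brain signal, the exception being 1457632_s_at. Between residual epithelium and brain, 8 of 14 were called higher in residual epithelium, against 21%, and 1 probe set of Meis2 (1417129_a_at) was lower, by 4.01-fold. For 7 of the 14 only the residual signal reached the chip median and for 2 only the brain signal. Nothing is read from these counts where the filter fixed the sign. Probe sets of a gene share their transcripts and are not replicates of a condition.

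By gene, the comparison with brain gave 2 of 4 counted members lower in sorted OSNs (Pax6 and Meis2) and none higher, where 21.1% of all counted genes were lower and 18.5% higher. Dlx6, Six4 and Otx2 were not counted there because neither signal reached the chip median. Between residual epithelium and brain all 7 members were counted, 5 were higher and none was lower, where 22.5% of all counted genes were higher and 18.9% lower. The members' median log2 ratio there was 1.80, against 0.12 over all counted genes. For 4 of the 7 (Dlx5, Dlx6, Six4 and Otx2) the residual signal alone reached the chip median, so this count and median are also a description, and of the 3 counted through both signals Meis1 was higher and Pax6 and Meis2 were within 2-fold. These comparisons share arrays, so their ratios are not independent of each other.

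**Figure D2:**
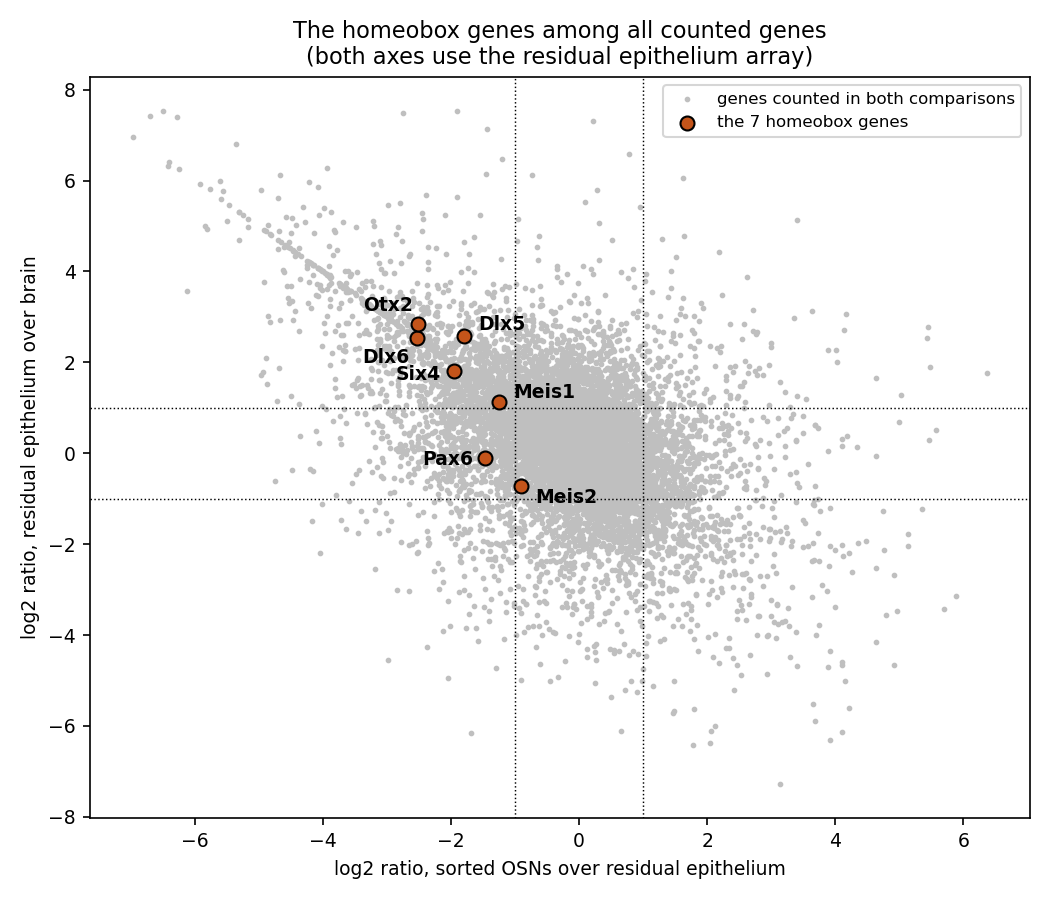
Log2 ratio of sorted OSNs to residual epithelium (horizontal) against that of residual epithelium to brain (vertical) for genes counted in both comparisons (grey) and the 7 homeobox genes (orange), with dotted lines at 2-fold and the residual epithelium array shared by both axes. Otx2, Dlx6, Dlx5, Six4 and Meis1 lie at the upper left, with Pax6 and Meis2 near 0 or below on the vertical axis.

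The pattern over the 3 populations was compared between genes by the distance between their floored log2 signals, each centred on its mean over the populations. Between members above the floor in all populations, Pax6 and Meis2 were at a distance of 0.48, Meis1 and Six4 at 0.56, and Dlx5 and Six4 at 0.71. Meis1 lay farther from its relative Meis2 (1.39), and Dlx5 and Meis2 were farthest apart (2.42). Distances from Dlx6 and Otx2 depended on the floor. Dlx6 and Otx2 were 0.27 apart, but 0.84 with a floor at percentile 10, and Otx2 and Six4 were 0.74 apart, but 2.31 with that floor and 0.04 with a floor at percentile 40. These floors were tried for the distances after the data were seen.

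With only 3 values per gene many genes share a pattern, and the nearest of the 13314 genes compared are given as a description. Nearest to Dlx5 were Resf1, Tjp3 (a tight junction protein) and Piezo1 (a mechanosensitive channel), at 0.02, 0.03 and 0.07, and 1.37% of genes lay within 0.5. Nearest to Otx2 were Lbr, Csrp2 and Lcp1 (an actin bundler of blood cells), at up to 0.02, with 1.83% within 0.5. Nearest to Six4 were Sfrp1, a secreted Wnt modulator, and then Sh3bp2 and Gfi1b, a blood transcription factor, at up to 0.04, with 3.39% within 0.5. Stk33, Fes and Slc43a3 were nearest to Dlx6, Nudt4, Ube2g2 and Scarf2 to Pax6, Mapkapk3, Ddx49 and Cym to Meis1, and Gnaq, Drg2 and Antxr1 to Meis2, all at up to 0.03. Stk33, Fes and Slc43a3 were at the floor in sorted OSNs and brain, as Dlx6 was, so their distances of up to 0.01 rest on replaced values and are no measured likeness. The same limit holds for Otx2 in brain and for Sh3bp2 and Gfi1b in sorted OSNs. The share of genes within 0.5 was largest for Meis1, at 7.36%.

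Relatives of the members in the same homeobox families were mostly faint. Of 20 listed, 18 were on the chips with a single symbol and only 4 were counted in sorted OSNs over residual epithelium. Otx1, the relative of Otx2, was the 1 called lower, against 18.7% of all counted genes. It had 13.7 in sorted OSNs, 503.3 in residual epithelium and 83.0 in brain (1437601_at, chip B). Only its residual signal reached the chip median, which fixed its sign. Its signal was at least 6.31-fold lower in sorted OSNs and 6.06-fold lower in brain than in residual epithelium. Six2 (358.7, 693.0 and 196.3), Six3 (248.2, 333.4 and 143.3) and Pax5 (500.0, 676.3 and 560.4) were within 2-fold between sorted OSNs and residual epithelium. Against brain, 3 of 5 counted relatives, Otx1, Six2 (3.53-fold) and Six3 (2.33-fold), were higher in residual epithelium, against 22.5% of all counted genes. All 3 were counted there only through the residual signal, which fixed their sign. Meis3 was 2.42-fold lower in sorted OSNs than in brain (104.9 and 253.5). It was counted only through the brain signal, which fixed its sign.

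The cofactors of Six4 and its relatives are the Eya phosphatases, which activate transcription with sine oculis factors, and the Dach corepressors. Of 5 counted, 4 were lower in sorted OSNs than in residual epithelium and none was higher, with a median log2 ratio of -3.09. Among all counted genes 18.7% were lower. For Eya2 and Dach1, as for Six4, only the residual signal reached the chip median, so the filter fixed their sign. Both signals of Eya1 and Eya4 reached it. Dach1 had 77.9 in sorted OSNs, 893.2 in residual epithelium and 182.9 in brain, at least 11.2-fold lower in sorted OSNs than in residual epithelium. Eya4 had 292.2, 2483.5 and 103.8, 8.50-fold lower in sorted OSNs and 23.9-fold lower in brain. Eya2 was at least 8.91-fold lower in both (44.1, 626.3 and 10.6), and Eya1 was 5.33-fold and 4.56-fold lower (428.3, 2282.0 and 500.1). Eya3 had equal signals in sorted OSNs and residual epithelium, 911.4 and 915.2. Other counted probe sets gave smaller log2 ratios of sorted OSNs to residual epithelium for Dach1 (-1.75), Eya1 (-1.31) and Eya4 (-1.30), and up to 1.03 for Eya3. They also gave smaller log2 ratios of residual epithelium to brain for Eya4 (2.27 against 4.58) and Dach1 (0.13 against 2.29).

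The TALE partners of Meis proteins had calls in both directions. Of 6 counted, 1 was higher in sorted OSNs than in residual epithelium, 2 were lower and 3 were within 2-fold (median log2 ratio 0.29). Among all counted genes 12.8% were higher and 18.7% lower, and nothing is read from so small a count. Pknox1, which like Meis binds with Pbx, had 4805.2 in sorted OSNs, 2005.6 in residual epithelium and 246.3 in brain. It was 2.40-fold higher in sorted OSNs than in residual epithelium and 19.5-fold higher than in brain, on the opposite side from Meis1 and Meis2. Over its 3 counted probe sets the log2 ratio of sorted OSNs to residual epithelium ran from 1.26 to 1.60 and that to brain from 2.49 to 4.29. Pbx3 (5558.1, 3795.8 and 1191.8) was within 2-fold inside the epithelium and 4.66-fold above brain in sorted OSNs (log2 2.22, and 1.31 on its other probe set). The TALE repressors Tgif1 (77.3, 474.0 and 34.2) and Tgif2 (41.3, 371.7 and 120.6) were 6.13-fold and at least 5.29-fold lower in sorted OSNs than in residual epithelium. Both were counted there only through the residual signal, which fixed their sign. Pbx2 was within 2-fold in all comparisons.

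Other regulators of the placode and epithelium fell into groups. Of 11 counted, 4 were lower in sorted OSNs than in residual epithelium and none was higher (median log2 ratio -0.73), while 8 of 11 were higher in residual epithelium than in brain. Among all counted genes these shares were 18.7% lower and 22.5% higher. Of the 4 lower genes, Sp8, Sox2 and Msx1 were counted only through the residual signal, which fixed their sign. Of the 8 higher than brain, Sp8, Fezf1 and Ebf2 were counted there only through the residual signal, with the same effect. Sp8, a zinc-finger factor of forebrain and olfactory development, showed the largest ratio: 181.3 in sorted OSNs, 3026.8 in residual epithelium and 64.2 in brain, 16.7-fold lower in sorted OSNs. Sox11, a factor of newly formed neurons (7966.5, 43377.4 and 1223.8), Sox2, of stem and supporting cells (189.2, 673.2 and 571.2), and Msx1 (84.5, 243.6 and 448.5) were the other lower genes. The factors known from OSN identity were within 2-fold between sorted OSNs and residual epithelium and were far above brain. Lhx2, a LIM homeodomain factor, had 4590.8, 5577.8 and 408.4. Emx2, another homeodomain factor, had 2530.2, 3825.2 and 361.8, Fezf1 had 6240.8, 10350.8 and 147.9, and Ebf2 had 5919.2, 4858.5 and 87.5, 1.22-fold higher in sorted OSNs than in residual epithelium. The homeobox genes Lhx2 and Emx2 thus differed from Dlx5, Dlx6, Six4 and Otx2 in being within 2-fold between these populations, a difference that was not tested.

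**Figure D3:**
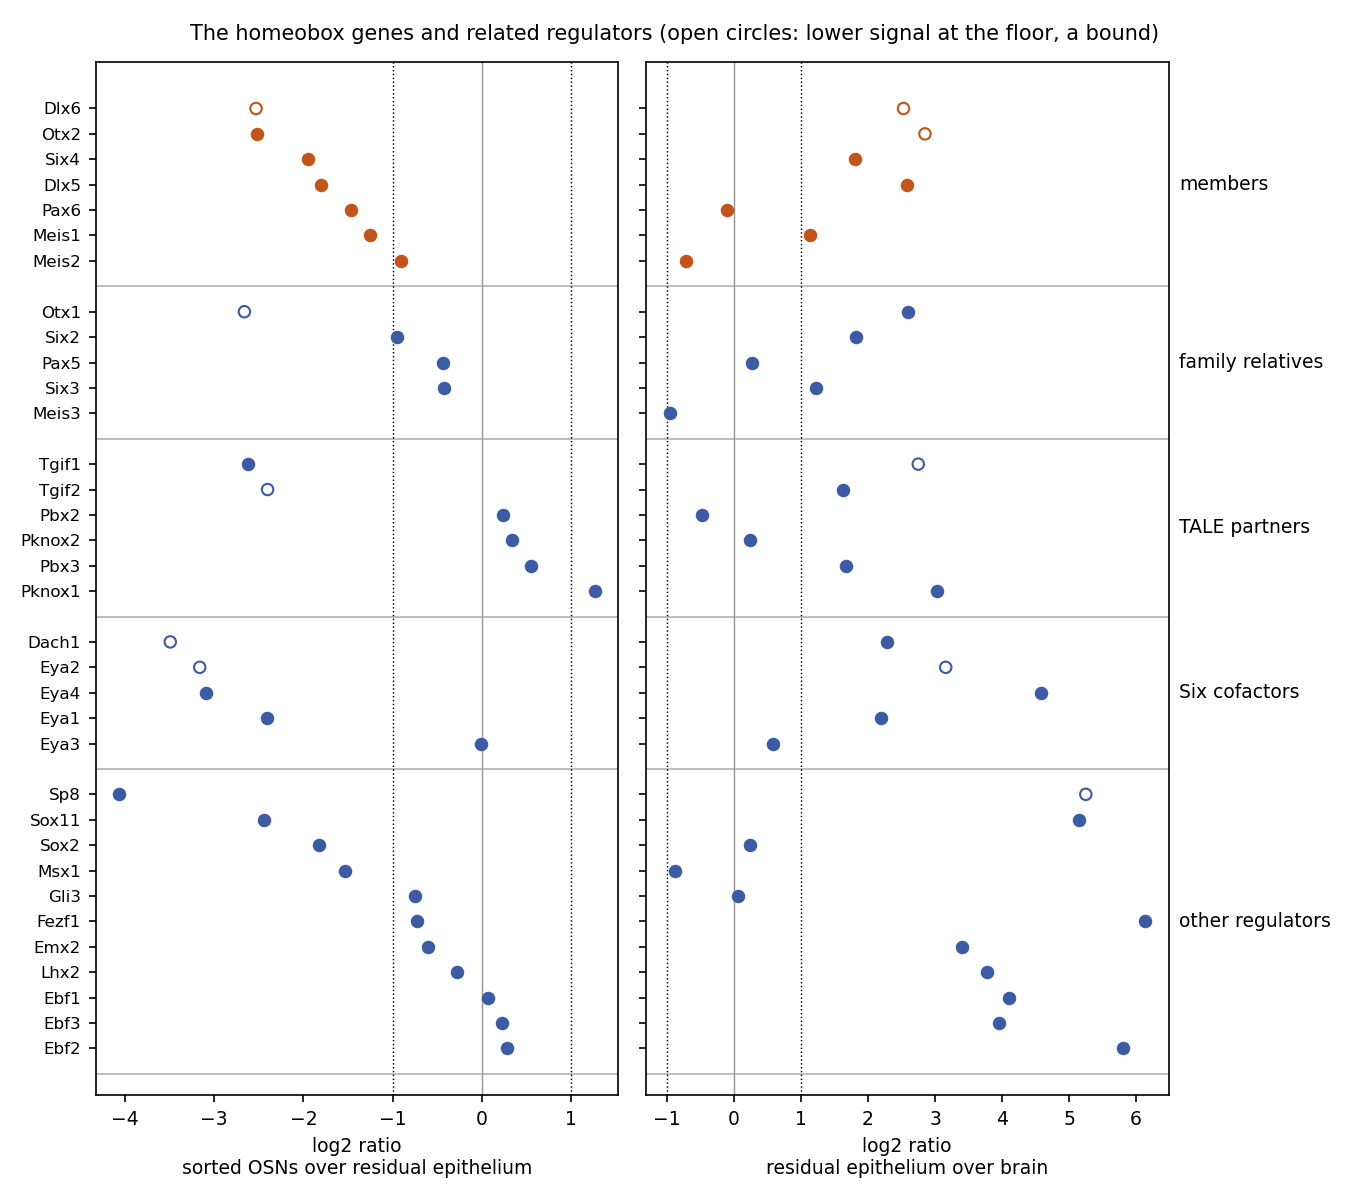
Log2 ratio of sorted OSNs to residual epithelium (left) and of residual epithelium to brain (right) for the 7 members (orange) and related genes (blue). Related genes are the counted genes of the related lists other than the forebrain interneuron list. Open circles are bounds set by the floor, and dotted lines are at 2-fold. The members, Otx1, Dach1 and the Eya genes other than Eya3 lie on the left side of the left panel, whereas Lhx2, Emx2 and the Ebf genes lie near 0 there and far to the right in the right panel.

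Of the genes that lie beside or downstream of Dlx genes in forebrain interneurons, 9 were on the chips. Only 3 were counted in sorted OSNs over residual epithelium, and all 3 were lower (median log2 ratio -1.73), against 18.7% of all counted genes. Isl1 was counted only through the residual signal, which fixed its sign, and Dlx6os1 lies across Dlx6, so this count is a description. In sorted OSNs over brain, 3 of 4 counted genes of this list were lower and none was higher. Among all counted genes 21.1% were lower and 18.5% higher there. In residual epithelium over brain 2 of 5 were higher and 3 lower, against 22.5% and 18.9% of all counted genes. Gad1 and Slc32a1 were counted against brain only through the brain signal, and Isl1 only through the residual signal. The filter fixed their signs, so these counts are also a description. Gad1, an enzyme of GABA synthesis, had 18.6 in sorted OSNs, 19.2 in residual epithelium and 3958.4 in brain, so it was at the floor where Dlx5 and Dlx6 were highest. Slc32a1, the vesicular GABA transporter, was likewise at the floor in both epithelial populations (6.2 and 13.9) against 1041.5 in brain. Gad2 had 303.0, 787.3 and 3921.8 and was 2.60-fold lower in sorted OSNs than in residual epithelium. Isl1, a LIM homeodomain factor (25.1, 245.9 and 83.3), was at least 3.50-fold lower in sorted OSNs than in residual epithelium and, with Dlx6os1, was above brain in residual epithelium. Of the Dlx relatives, Dlx1 and Dlx2 were below the chip median in every population, with highest signals of 82.2 and 102.3, both in brain.

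Summed signals of markers of several epithelial cell types were, like the members, higher in residual epithelium than in sorted OSNs. The part of these cell types in the result was not tested. The 5 progenitor markers, all on chip A, summed to 929.0 in sorted OSNs, 10108.1 in residual epithelium and 3026.4 in brain, with Neurog1 at the floor in sorted OSNs and brain. The 4 horizontal basal cell markers summed to 248.8, 1798.7 and 90.1, with 3 of 4 at the floor in sorted OSNs and all in brain. The 6 sustentacular markers on chip A summed to 7841.5, 14111.4 and 684.9, none at the floor in sorted OSNs. That list was mixed: 4 of 7 on both chips were called lower in sorted OSNs. Cyp2g1 (3821.8 in sorted OSNs and 2657.3 in residual epithelium) and Cyp1a2 (424.4 and 334.7) were higher in sorted OSNs, within 2-fold. The immature OSN markers on chip A summed to 9715.6, 21064.9 and 10605.7, and the 2 on chip B to 2679.0, 18022.2 and 664.7. The 3 cerebellar granule markers on chip A, from cells known to carry Pax6, summed to 481.5, 285.7 and 5087.7, with 2 at the floor in sorted OSNs and in residual epithelium.

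Promoter sequences from RefSeq (GRCm38.p6) were held for 10 start sites of 5 members, not for Dlx5 or Dlx6. The 250 bases before each start were searched on both strands for TAATTA, a homeodomain core, for TGACAG, a Meis core, and for CCCNNGGG, a core of EBF sites. These words occurred in 4.84%, 15.9% and 11.8% of all 32851 such windows. TAATTA was in 2 of 4 Otx2 windows, TGACAG in 1 of 2 Pax6 windows, and none of the 3 in the Six4, Meis1 or Meis2 windows. Such a match is a description of letters and not evidence of a binding site.

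The windows before the most distal start of Otx2 and of Pax6 are shown because they were the only 2 of the 10 that lay outside the gene. Whether their sequence bears on the signals was not tested. That of Otx2 is chr14:48667645-48667894 (minus strand) and that of Pax6 is chr2:105668646-105668895 (plus strand), both outside the gene, 5′ to 3′, with the searched words in capitals.

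Otx2: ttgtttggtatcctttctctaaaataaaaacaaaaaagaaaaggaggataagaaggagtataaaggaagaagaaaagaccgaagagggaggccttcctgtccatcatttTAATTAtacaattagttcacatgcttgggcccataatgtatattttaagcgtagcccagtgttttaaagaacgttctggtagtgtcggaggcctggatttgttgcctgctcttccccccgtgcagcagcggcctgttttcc

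Pax6: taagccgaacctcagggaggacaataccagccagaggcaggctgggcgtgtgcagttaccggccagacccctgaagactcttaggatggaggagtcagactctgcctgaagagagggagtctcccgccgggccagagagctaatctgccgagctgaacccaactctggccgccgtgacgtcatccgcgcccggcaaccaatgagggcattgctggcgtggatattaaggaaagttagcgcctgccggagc

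The Otx2 window held 1 TAATTA, ending 136 bases before the start, and the Pax6 window held none of the words. The Otx2 window was 42.0% G and C with 6 CG pairs, and the Pax6 window was 60.8% with 15.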

How the data were processed

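The deposited values are probe set signals, a 1-colour intensity that, per the submitters' processing notes, came from MAS5 (no version given) for 5 of 6 arrays; none is named for brain on chip A. The mean between percentile 2 and percentile 98 was 499.6 to 499.9 on all 6 arrays, so each had been scaled to a common level, which fixes its mean. For arrays, their number limits the precision. Probe sets were named by the platform annotation, with symbols updated through Entrez identifiers to the RefSeq table: 35041 had 1 symbol, 936 several and 9160 none, and none was named from several. The files name no genome build. Floor, filter and log2 ratios within a chip are given with the results, and none is a test. The members, gene lists and rules were chosen with earlier results of these data known. Named genes are all members, the 3 genes nearest to each, and the highest and lowest counted gene of each related list per comparison, with further list members given to show the spread and chosen after their values were seen. Marker lists without a result above (Bowman gland, ensheathing glia, endothelial and stromal, striatal, cortical, astrocyte) are given under other observations. Further results of the choroid plexus and cerebellar granule lists are given there too. The computation was tested on simulated data. Tables were computed with pandas 2.3.3 and numpy 2.4.6 in Python 3.11.15, and plots were drawn with matplotlib 3.10.9. Alternatives were floors at percentile 10 and 40, a pseudocount of 50, no filter or one at percentile 75, quantile normalization, scaling on shared probe sets, centring, and the median of all probe sets of each gene.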

Additional observations from a re-analysis of the deposited data

How the results depend on the processing

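In the 9 alternatives the count of members lower in sorted OSNs than in residual epithelium stayed at 6, except for 2 of 3 counted with the filter at percentile 75, and none was higher in any. Members that this filter removed have no value under it, and with the median over probe sets Meis2 (-1.14) took the place of Pax6 (0.00) among the 6. With that filter 2 members were higher in residual epithelium than in brain and 1 was lower in sorted OSNs than in brain. With the median over probe sets 1 member was lower in sorted OSNs than in brain, where Pax6 had a log2 ratio of -0.05. Quantile normalization put 1 member, Dlx5, above 2-fold in sorted OSNs over brain (log2 1.11). Scaling on shared probe sets, which moved the median of all genes from 0.12 to -0.09 for residual epithelium over brain and from 0.05 to -0.16 for sorted OSNs over brain, put Meis2 past 2-fold (-1.09) and made 1 member lower in residual epithelium than in brain. Of 151 single log2 ratios, 26 moved by more than the SD between chips and none that was called changed sign. The ratios of Dlx6 and Otx2 to brain followed the floor, from 1.47 to 4.57 and from 1.79 to 4.88. The cause of these shifts was not tested beyond the settings' own construction. No paired analysis was possible because each population had 1 array per chip. Faint signals near the floor limit Dlx6, Otx2 and most Pax6 probe sets.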

Other observations

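Antisense genes named after Pax6, Otx2 and Dlx6 were looked up after the members' values were seen, and are given as values. Pax6os1 (1440445_at, chip B) had a signal of 209.4 in sorted OSNs, 49.2 in residual epithelium and 289.2 in brain, so it was at least 3.63-fold lower in residual epithelium than in brain, where Pax6 differed little. Otx2os1 (1443680_at, chip B) had 154.4 in sorted OSNs, 23.2 in residual epithelium and 32.3 in brain, below the chip median throughout. Its highest signal was in sorted OSNs, where Otx2 was near the floor. Dlx6os2 (1427563_at, chip A) was below the floor in all 3 populations, with 49.2 in brain as its highest signal.

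Markers of further cell types were compared in the same way. Bowman gland genes were lower in sorted OSNs than in residual epithelium in 3 of 3 counted, with a median log2 ratio of -3.90. Of ensheathing glia genes, which support olfactory axons, 2 were counted there and 1 was lower, and all 5 counted against brain were lower in sorted OSNs. Endothelial and stromal genes were lower in sorted OSNs than in residual epithelium in 2 of 3 counted, and choroid plexus genes in 2 of 5. Between sorted OSNs and brain, cerebellar granule genes were lower in sorted OSNs in 4 of 4 counted, striatal genes in 3 of 4, cortical excitatory genes in 3 of 3 and astrocyte genes in 5 of 5. Among all counted genes 18.7% were lower in sorted OSNs than in residual epithelium and 21.1% lower than in brain. Col1a1, Ttr and Aqp1 were counted against residual epithelium only through the residual signal. S100b, Npy, Fabp7, Gabra6, Cbln3, Zic1, Drd1, Ppp1r1b, Penk, Slc17a7, Neurod6, Gfap and Aldh1l1 were counted against brain only through the brain signal. The filter fixed the sign of these genes, so the counts are a description.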
